A study of Mus musculus with 8 samples.

Results

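Aquaporins are small membrane proteins that let water cross the cell membrane. Expression of 7 aquaporin genes, Aqp1, Aqp3, Aqp4, Aqp5, Aqp7, Aqp8 and Aqp9, was examined in tumour cells sorted from mouse skin squamous cell carcinomas (SCC). The genes were found by symbol in the annotation of the array, which gave 7 of 17097 genes with a probe set of their own, and a gene with several probe sets was read from the one that was brightest on average across the 8 arrays. They were chosen by their measured levels in well differentiated SCC (WD-SCC) and poorly differentiated SCC (PD-SCC) within tumour lineages. Their differences between these stages are therefore given as descriptions, and nothing is read from a test of them.

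Each array held RNA of cells positive for CD34 and α6-integrin, surface proteins used to mark cancer stem cells of the skin, after depletion of blood and endothelial cells. The tumours arose spontaneously or after DMBA and TPA, a mutagen and a tumour promoter, in K14-HPV16 mice of the strain FVB/C57/Bl6. In these mice the keratin 14 promoter drives papillomavirus genes in basal keratinocytes, so that tumours of both stages carry that transgene, and both stages were grown as grafts in nude mice, which lack most T cells. WD-SCC and PD-SCC were taken from 3 serially transplanted lineages, OT7 with 2 arrays per stage and OT14 and OT15 with 1 array per stage. In the sample titles PD-SCC is spelled PD/S-SCC. The titles call the arrays biological replicates, but whether arrays of 1 lineage and stage are separate tumours is not stated. Any p-value therefore measures only the spread between these samples. In the stage comparison that spread comes from the repeated OT7 arrays, where it may be technical, and from stage differences that vary between lineages.

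The family has a branch of water-selective channels and a branch of aquaglyceroporins that also pass glycerol. In this set Aqp1, Aqp4 and Aqp5 are water-selective, Aqp3, Aqp7 and Aqp9 pass glycerol, and Aqp8 passes water, ammonia and hydrogen peroxide. Aqp3 is the aquaporin of basal keratinocytes in the epidermis and supplies it with glycerol, and Aqp1 is best known from red blood cells, the endothelium and kidney tubules. Aqp5 serves sweat, salivary and lacrimal glands, Aqp7 adipocytes, Aqp9 liver and leukocytes, and Aqp4 brain and muscle.

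All values are log2 units of normalised expression. Background was taken on each array as the highest of 15 probe sets for bacterial transcripts that serve as controls, which lay between 3.82 and 4.37 on the WD-SCC arrays and between 3.61 and 3.81 on the PD-SCC arrays. Array medians lay between 3.66 and 3.77. Of the 7 aquaporins, 3 exceeded background, Aqp1 on 7 of 8 arrays and Aqp3 and Aqp5 on all 8, and 4 did not exceed it on any array in the probe set used. Of all genes, 71.3% exceeded it on at least 1 array.

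Between the stages Aqp1 and Aqp3 went opposite ways. Aqp1 was 24.1-fold higher in PD-SCC, with 1 WD-SCC array under background in that mean, Aqp3 was 5.82-fold lower, and Aqp5 was present at both stages with overlapping levels. In bulk samples such as these, fewer cells of a type and less RNA per cell cannot be told apart. In the fit across all genes, limma with lineage as a block, 2 of the 7 members, Aqp1 and Aqp3, were past an adjusted p of 0.05, beside 12.6% of all genes. Nothing is read from that count, because the stage comparison chose the members. For 4 members, Aqp1, Aqp3, Aqp4 and Aqp9, no WD-SCC array overlapped a PD-SCC array, beside 24.1% of all genes, but Aqp4 and Aqp9 were under background at both stages. The median difference over all 7 members was -0.21, against -0.06 over all genes. That median is the value of Aqp9, and 4 of the 7 members were under background, so nothing is read from it.

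**Figure D1:**
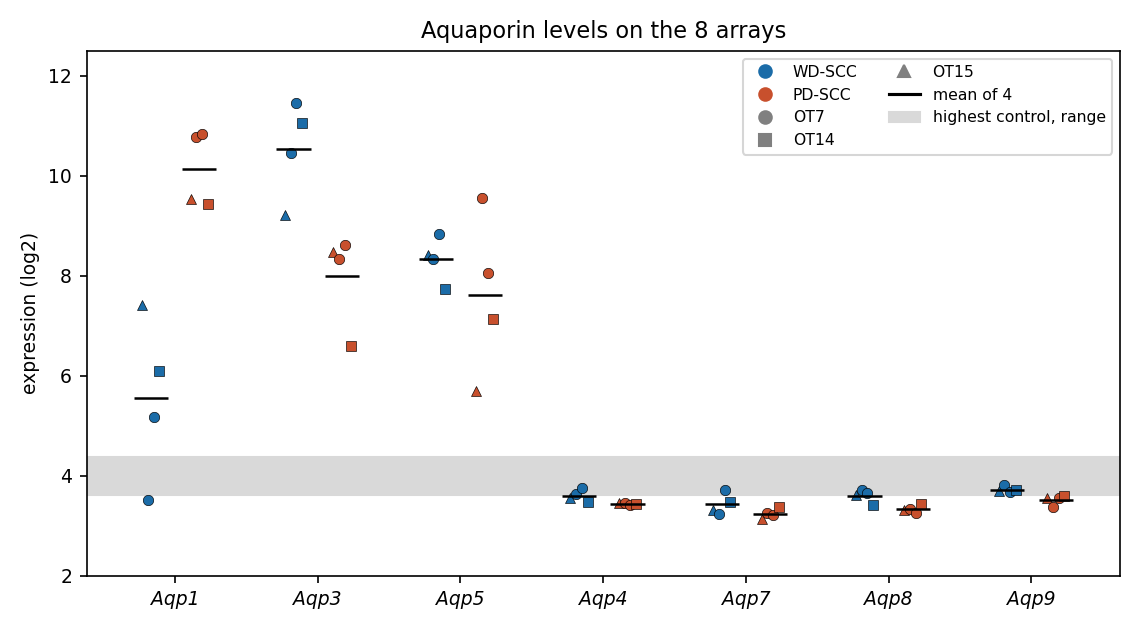
Expression (log2) of the 7 aquaporin genes on each array, WD-SCC in blue and PD-SCC in orange, with symbols for the lineages, black lines for the mean of 4 arrays and a grey band for the range of the highest bacterial control. Aqp1 lies between 3.52 and 7.41 in WD-SCC and between 9.44 and 10.83 in PD-SCC, Aqp3 is lower in PD-SCC, and Aqp4, Aqp7, Aqp8 and Aqp9 lie at or under the band.

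The bases upstream of Aqp1 and Aqp3 are shown because these are the members that differed most between the stages. Both are the 250 bases before the gene's start in RefSeq (GRCm38.p6), written on the gene's strand, chr6:55336049-55336298 (plus strand) for Aqp1 and chr4:41098184-41098433 (minus strand) for Aqp3. Capitals mark matches to 3 short motifs, which were searched on both strands. The E-box, bound by helix-loop-helix and zinc finger repressor proteins, was searched as CACCTG. The GC box, bound by Sp1 and related factors, was searched as GGGCGG. The TATA box, a core promoter element that places the start of transcription, was searched as TATAAA. None of the marked matches overlap.
Aqp1: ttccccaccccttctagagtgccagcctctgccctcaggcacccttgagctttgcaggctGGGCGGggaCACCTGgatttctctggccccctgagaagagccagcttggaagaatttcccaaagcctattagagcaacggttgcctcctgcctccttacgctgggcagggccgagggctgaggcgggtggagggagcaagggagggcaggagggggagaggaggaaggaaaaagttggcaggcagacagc
Aqp3: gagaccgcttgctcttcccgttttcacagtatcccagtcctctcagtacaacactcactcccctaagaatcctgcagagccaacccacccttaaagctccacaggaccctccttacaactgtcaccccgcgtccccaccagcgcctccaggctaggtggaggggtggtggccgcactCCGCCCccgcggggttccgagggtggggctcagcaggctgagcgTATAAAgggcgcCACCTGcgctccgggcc

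The Aqp1 window held the GC box 190 to 185 and the E-box 181 to 176 bases before the start, both on the gene's strand. The Aqp3 window held a GC box on the other strand at 73 to 68, a TATA box at 29 to 24 and an E-box at 17 to 12 bases before the start. Of 32851 upstream windows of the same length, 17.2% held the E-box, 32.7% the GC box and 12.4% the TATA box on either strand. The Aqp1 window held 5 CG dinucleotides, with a GC content of 62%, and that of Aqp3 held 14, with 64%. No binding or methylation was measured, and these matches are descriptions of the letters.

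Aqp1 encodes the water channel first described in red blood cells and lies on chromosome 6 (55336299 to 55348555, GRCm38.p6). On the WD-SCC arrays it stood at 3.52 on the unnumbered OT7 array, 5.17 on the OT7 array numbered 2, 6.09 in OT14 and 7.41 in OT15. On the PD-SCC arrays it stood at 10.77 and 10.83 in OT7, 9.44 in OT14 and 9.53 in OT15. Every PD-SCC array was higher than every WD-SCC array, and the unnumbered OT7 WD-SCC array was under its background of 4.13. The WD-SCC arrays spread over a wide range, with OT7 lowest and OT15 highest, while in PD-SCC OT7 was highest. The stage means were 5.55 ± 1.64 and 10.14 ± 0.76 (SD, n = 4), a difference of 4.59 with an SE of 0.87.

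By lineage, Aqp1 differed most in OT7, by 6.45, then by 3.35 in OT14 and least, by 2.12, in OT15. The interaction of stage and lineage compares these sizes and had an adjusted p of 0.359 (limma, range 0.25 to 0.372 over 5 alternatives). It is computed from the within-lineage stage differences that chose the members, so nothing is read from it for any member. Nor does such a p show that the lineages were alike. That test takes its spread only from OT7, where arrays were repeated. The overall Aqp1 difference was 2.73 without lineage OT7, 3.89 without the unnumbered OT7 WD-SCC array, 5.42 without either OT15 array and 4.44 with values raised to background. Only 1 probe set measured Aqp1, so no other probe set could be set beside it.

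**Figure D2:**
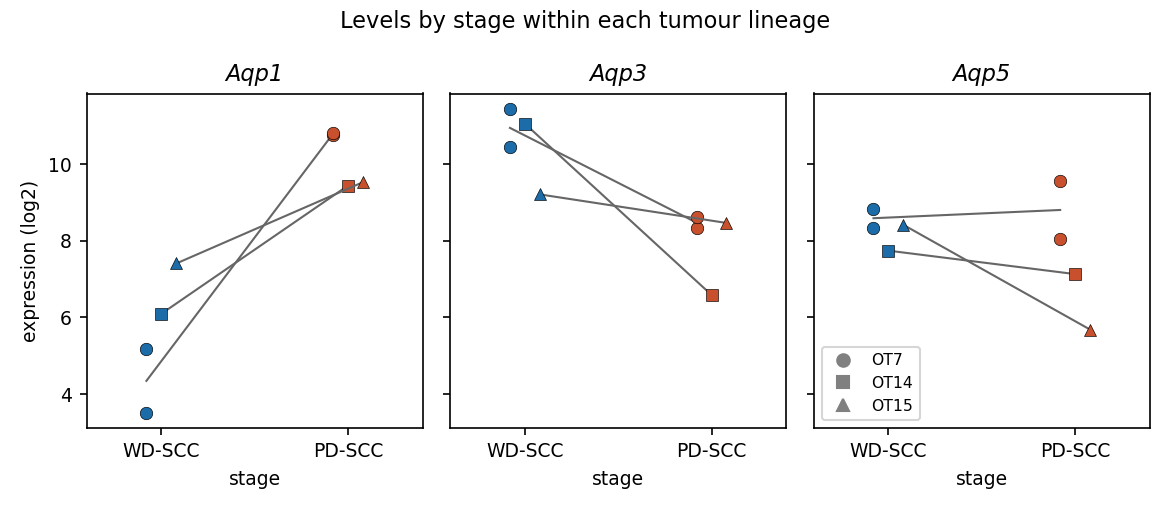
Expression (log2) of Aqp1, Aqp3 and Aqp5 by stage, 1 point per array with a symbol for its lineage and a line joining the lineage means. Aqp1 is higher in PD-SCC in each lineage and Aqp3 lower, with a difference of -4.47 in OT14 and -0.74 in OT15, while the OT7 line of Aqp5 is nearly flat.

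Aqp3, the glycerol and water channel of basal keratinocytes, lies on chromosome 4 (41092724 to 41098183). In WD-SCC it stood at 10.45 on the unnumbered OT7 array, 11.45 on the other OT7 array, 11.06 in OT14 and 9.21 in OT15. In PD-SCC it stood at 8.33 and 8.61 in OT7, 6.59 in OT14 and 8.47 in OT15. All WD-SCC arrays were higher than all PD-SCC arrays, yet the OT15 WD-SCC array was closer to the PD-SCC arrays than the other WD-SCC arrays were, and OT14 was lowest in PD-SCC. The means were 10.54 ± 0.98 and 8.0 ± 0.95 (SD, n = 4), and the difference of -2.54 had an SE of 0.59. The fall was largest in OT14, at -4.47, followed by OT7 at -2.47 and OT15 at -0.74 (interaction adjusted p = 0.334, limma, range 0.211 to 0.604 over 5 alternatives). Without either OT14 array the overall difference was -1.90, and without either OT15 array it was -3.14. Aqp3 was still above background on every PD-SCC array.

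A total of 3 probe sets measured Aqp3, all designed on 1 mRNA record, and they did not give the same size of difference. The probe set with the middle mean stood at 5.45, 6.68, 6.22 and 4.83 in WD-SCC, in the order unnumbered OT7, OT7 numbered 2, OT14 and OT15, and between 4.802 and 4.999 in PD-SCC. The probe set with the lowest mean stood at 5.83, 8.21, 7.22 and 4.04 in the same order and between 3.65 and 3.89 in PD-SCC. All 3 were lower in PD-SCC in OT7 and OT14. In OT15 the stage differences were -0.74, -0.02 and -0.39 in order of mean level, and the last probe set was under background on both OT15 arrays. The mean of the 3 probe sets differed by -1.99.

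**Figure D3:**
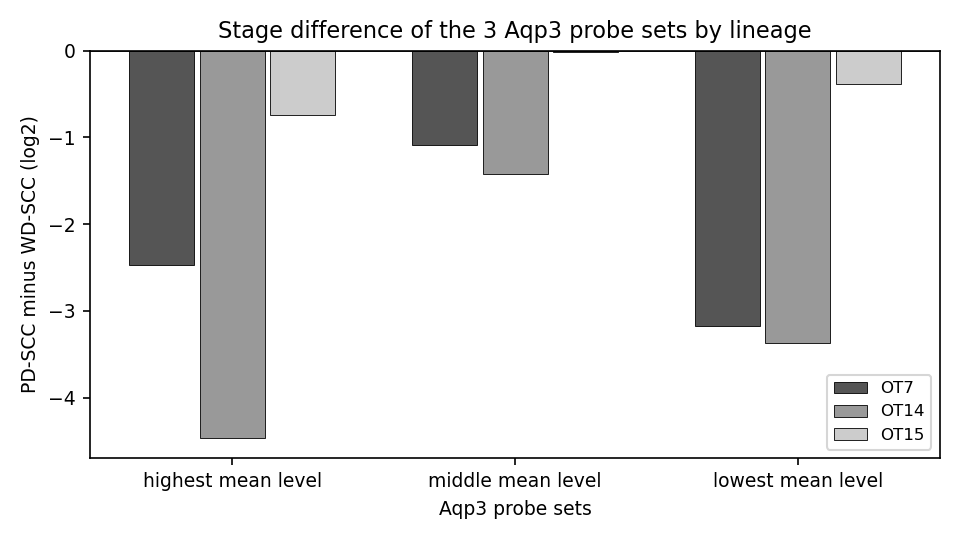
Difference between PD-SCC and WD-SCC (log2) for the 3 Aqp3 probe sets, ordered by mean level over the 8 arrays, with 1 bar per lineage (the mean of 2 arrays per stage in OT7, 1 array per stage in OT14 and OT15). The OT15 bar is the shortest for each probe set, at -0.74, -0.02 and -0.39.

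Aqp5, the water channel of secretory glands, lies on chromosome 15 (99591028 to 99594829). In WD-SCC it stood at 8.34 and 8.84 in OT7, 7.74 in OT14 and 8.42 in OT15. In PD-SCC it stood at 9.55 and 8.06 in OT7, 7.13 in OT14 and 5.68 in OT15. The stages overlapped, and the PD-SCC arrays included both the highest and the lowest value of the 8. The means were 8.34 ± 0.45 and 7.61 ± 1.62 (SD, n = 4), with a difference of -0.73 and an SE of 0.60. Lineage OT15 had a difference of -2.73 and OT14 of -0.61, whereas OT7 had 0.21, with its 2 PD-SCC arrays on either side of its WD-SCC arrays (interaction adjusted p = 0.53, limma, range 0.417 to 0.535 over 5 alternatives). Without lineage OT15 the overall difference was -0.06, and without OT7 it was -1.67.

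The other 4 members were at or under background. Aqp4, the channel of brain and muscle, lay between 3.41 and 3.75 over the 8 arrays. Aqp7, the glycerol channel of adipocytes, lay between 3.13 and 3.71, and Aqp8 between 3.26 and 3.72. Aqp9, which passes glycerol and urea and is made by liver cells and leukocytes, lay between 3.37 and 3.81. Another Aqp9 probe set, with a lower mean, stood at 4.14 on the OT7 WD-SCC array numbered 2, against a background of 4.13 there, and was under background on the other 7 arrays. For these 4 genes no fold is given, since both stages were under background, and the arrays give only an upper bound on their level.

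Levels of the lineages at equal stage, which did not enter the choice of the members, were tested in the same fit. Of the 7 members 0 were past the threshold (adjusted p of 0.759 to 0.993, F test of limma), beside 0% of all genes, and 1251 of 17097 had an unadjusted p under 0.05. Aqp1 was higher than in OT7 by 0.20 in OT14 and by 0.90 in OT15. Aqp5 differed from OT7 by -1.26 in OT14 and by -1.65 in OT15 (adjusted p = 0.759), and Aqp3 stood at -0.89 and -0.87 (adjusted p = 0.894). The test of a stage effect that differs between lineages called 0 of 7 members and 0% of all genes, with 2043 genes at an unadjusted p under 0.05. It uses the stage differences that chose the members, so nothing is read from its member count.

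Across the 8 arrays Aqp1 and Aqp3 correlated at -0.79 (Pearson's r), which contains the stage difference of both. After the stage means were subtracted, their deviations correlated at -0.14, those of Aqp1 and Aqp5 at 0.29, and those of Aqp3 and Aqp5 at 0.11. These are descriptions over 8 arrays that share stage and lineage. Among 3442 genes with a range of at least 2 over the arrays, the genes most like Aqp1 were Abl2, a tyrosine kinase gene (r = 0.97, and 0.85 for deviations from the stage means), Ipmk, an inositol phosphate kinase gene (0.97 and 0.93), and Ank, which encodes a membrane transporter (0.97 and 0.86). Those most like Aqp3 were Cd52, which encodes a small surface glycoprotein (0.94 and 0.81), Shroom1 (0.94 and 0.80) and Mpzl2, an epithelial adhesion gene (0.94 and 0.80). Those most like Aqp5 were Klc3, a kinesin light chain gene (0.90 and 0.89), Edn1, which encodes endothelin 1 (0.90 and 0.88), and the simple epithelial keratin gene Krt18 (0.88 and 0.87).

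Because Aqp1 is a gene of endothelium and red blood cells, markers of both were measured beside it. Of 11 endothelial markers, none was higher in PD-SCC and 2 were lower, Tie1 and Cldn5 (adjusted p = 0.0153 and 0.00951, limma), beside 7.78% of all genes called higher and 4.81% called lower. Their summed level (log2 of the sum of linear values) lay between 7.56 and 10.97 in WD-SCC and between 7.07 and 8.80 in PD-SCC. Tek and Vwf were under background on every array, and Pecam1 fell short of the threshold, with 6.50 ± 1.49 in WD-SCC and 3.84 ± 0.31 in PD-SCC (SD, n = 4, adjusted p = 0.0531). Of 6 measured erythroid markers none was called, and their sum lay between 6.97 and 7.57 in WD-SCC and between 6.52 and 7.11 in PD-SCC. The haemoglobin gene Hba-a1 stood at 6.29 ± 0.34 and 5.66 ± 0.68 and Rhag was under background on every array. On the OT7 PD-SCC arrays, which had the highest Aqp1, the endothelial sums of 7.14 and 7.07 were the lowest of the 8 arrays. The erythroid sums there were 7.11, the highest among the PD-SCC arrays, and 6.62. On the WD-SCC arrays (unnumbered OT7, OT7 numbered 2, OT14 and OT15) Aqp1 stood at 3.52, 5.17, 6.09 and 7.41. The endothelial sums of these WD-SCC arrays, in the same order, were 7.56, 9.87, 10.97 and 10.39. The part of either cell type in the Aqp1 difference was not tested. Of 9 fibroblast markers none was higher and 1, Thy1, was lower, with sums of 8.96 to 12.97 and 9.88 to 11.60.

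Aqp3 was lower in PD-SCC together with keratinocyte markers. Of 8 keratinocyte markers, 5 were lower in PD-SCC (Krt5, Krt14, Dsp, Epcam and Cdh1) and none higher, and their sum lay between 12.68 and 13.45 in WD-SCC and between 6.90 and 9.51 in PD-SCC. The OT14 and OT15 PD-SCC arrays had the lowest sums, 7.32 and 6.90, with Aqp3 at 6.59 and 8.47. The part of these genes in the Aqp3 difference was not tested. A control probe set of 25 G and C bases without a target, a measure of nonspecific signal, was also brighter in WD-SCC. It stood at 8.002 to 8.53 against 6.66 to 7.08 in PD-SCC, and its part in the Aqp3 difference was not tested. The Aqp1 difference had the opposite direction, and the part of this signal in it was not tested either.

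For Aqp5, the glandular markers Foxa1 and Foxi1 were under background on every array, and of 7 such markers 1, Krt19, was lower and none higher (sums of 8.27 to 10.14 in WD-SCC and 7.27 to 11.06 in PD-SCC). The PD-SCC array with the highest sum, 11.06, was OT7 numbered 1, which also had the highest Aqp5, and the lowest, 7.27, was OT15, which had the lowest Aqp5. On the PD-SCC arrays Foxa1, Foxi1, Best2 and Krt7 were under background. The brightest there were the simple epithelial keratin genes Krt18 and Krt8, with means of 7.93 and 7.64. Krt8 differed by 5.74 in OT7 and -3.01 in OT15, and Krt18 had already been picked as like Aqp5. The sums are therefore no measure of gland cells, and the part of these markers in the Aqp5 values was not tested. For cell types in which the dim members are best known, some markers were above background and others were not. Of 4 measured adipocyte markers Adipoq and Lep were under background throughout and Fabp4 was lower in PD-SCC, of 10 myeloid markers Ptprc, Itgam, Adgre1 and Csf3r were under background throughout and 3 (S100a8, S100a9 and Cd68) were lower, and of 6 skeletal muscle markers Acta1 and Myh4 were under background throughout and Ckm was lower. The sums were 6.97 to 9.52 and 5.34 to 6.35 for adipocyte, 10.14 to 12.56 and 6.94 to 7.76 for myeloid and 6.57 to 6.97 and 6.32 to 6.82 for muscle markers, WD-SCC first. In WD-SCC the brightest myeloid markers were S100a8 and S100a9, with means of 10.04 and 10.55, and the brightest adipocyte marker was Fabp4, at 7.78. Whether such cells were present was not tested.

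**Figure D4:**
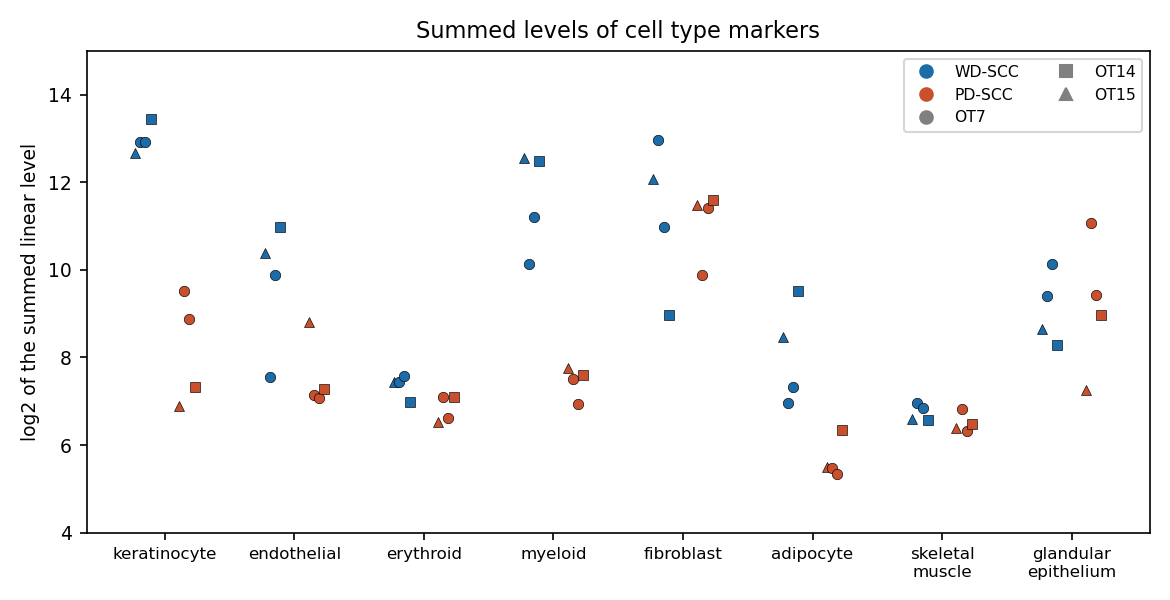
Summed level of each cell type's markers (log2 of the sum of linear values) on each array, WD-SCC in blue and PD-SCC in orange, with symbols for the lineages. Keratinocyte, myeloid and adipocyte sums are lower on every PD-SCC array, and the endothelial and erythroid sums overlap between the stages, with the erythroid sum of OT14 at 6.97 in WD-SCC and 7.09 in PD-SCC.

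The aquaporin genes outside the set, Aqp2, Aqp6, Aqp11, Aqp12 and Mip, were measured too, and 0 of 5 were called between stages (limma, 12.6% of all genes were). Aqp2 and Aqp5 lie 6482 bases apart on chromosome 15, and Aqp5 and Aqp6 lie 3638 bases apart, with no other annotated gene between them. Aqp2, the vasopressin-regulated channel of the kidney, was above background on all 8 arrays, at 5.31 ± 0.44 in WD-SCC and 4.61 ± 0.08 in PD-SCC (SD, n = 4, adjusted p = 0.1). It was lower on every PD-SCC array than on every WD-SCC array. Aqp2 was called lower with 75th percentile scaling, without the unnumbered OT7 WD-SCC array and with values raised to background. That last setting called 3 of the 5 lower, beside 2186 of all 17097 genes called higher and 8325 called lower. Background was higher on the WD-SCC arrays, so genes raised to it at both stages become lower in PD-SCC. Aqp6 stood at 4.501 ± 0.19 and 4.22 ± 0.14 (adjusted p = 0.238). Its next brightest probe set was above background on 6 of 8 arrays, and its remaining probe sets on 0. Aqp2 and Aqp6 were both dim, at 4.52 to 5.68 and 4.03 to 4.78 over the 8 arrays. The control probe set without a target was likewise brighter in WD-SCC, and the part of nonspecific signal in the Aqp2 and Aqp6 values was not tested. Aqp7 and Aqp3 are neighbours on chromosome 4, with 44486 bases and no other protein-coding gene between them, and while Aqp3 was bright, Aqp7 was under background at both stages. Aqp11 was under background on both OT7 WD-SCC arrays, at 3.97 and 3.70, and above it on both OT7 PD-SCC arrays, at 4.71 and 5.51. In OT14 it stood at 5.49 in WD-SCC and 3.88 in PD-SCC and in OT15 at 6.02 and 4.24 (stage adjusted p = 0.843, interaction adjusted p = 0.25, limma), and its other probe set was under background on all arrays. Mip did not exceed background on any array and Aqp12 on 1.

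Aqp3, Aqp7 and Aqp9 carry glycerol, and genes of glycerol and triglyceride handling were partly lower in PD-SCC. Of 15 measured genes, 4 fell and 0 rose, beside 4.81% of all genes lower and 7.78% higher. This list was chosen with earlier results of these data known, so its count and median are descriptions. The median difference of the 15 was -0.26, against -0.06 over all genes. It was -0.09 without an OT14 or an OT15 array, against -0.08 and -0.05 over all genes, and -0.57 with cyclic loess. Dgat2, which makes triglyceride, stood at 10.16 ± 0.71 in WD-SCC and 4.32 ± 0.07 in PD-SCC (SD, n = 4), and was lower on each PD-SCC array than on any WD-SCC array (adjusted p = 0.0015, limma, range 7.49e-05 to 0.0252 over 17 alternatives). Lipe, the hormone-sensitive lipase, fell by 2.45 (adjusted p = 0.0135, range 0.00196 to 0.0508), and Abhd5, which activates the first lipase of triglyceride breakdown, fell by 2.30 (adjusted p = 0.00785, range 0.00262 to 0.114). Pld2, a phospholipase D that binds Aqp3 in keratinocytes, fell by 1.12 (adjusted p = 0.0435, range 0.0177 to 0.179) and was named after its value was seen. Pnpla2 was under background at both stages. The Lipe call ended without lineage OT14, the Abhd5 call with the OT7 arrays averaged or without OT7, and the Pld2 call under 13 of 17 alternatives, the fit without the lineage block among them (adjusted p = 0.111).

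Of 20 measured genes of cell volume control and the osmotic response, 4 rose and 0 fell, beside 7.78% of all genes higher and 4.81% lower. Earlier results of these data were known when this list was chosen too, so its count and median are descriptions. The median difference of the 20 was 0.65, against -0.06 over all genes, and it was 0.34 with cyclic loess and 0.32 without lineage OT7. Ano6, a phospholipid scramblase and ion channel gene, rose by 1.78 (adjusted p = 0.00797, range 0.00134 to 0.0547 over 17 alternatives), and Oxsr1, a kinase gene of the WNK pathway that regulates ion cotransport, rose by 1.61 (adjusted p = 0.00757, range 0.0051 to 0.127). Hspa4l, a chaperone gene induced by osmotic stress, rose by 2.01 (adjusted p = 0.0386, range 0.0199 to 0.17), and Lrrc8d, a subunit of the volume-regulated anion channel, rose by 0.73 (adjusted p = 0.0498, range 0.0328 to 0.309) and was named after its value was seen. The Hspa4l call was lost under 9 of 17 alternatives and the Lrrc8d call under 13. The osmotic transcription factor gene Nfat5 stood at 8.95 ± 0.34 and 9.52 ± 0.12 (SD, n = 4, adjusted p = 0.0864). The count was 2 with cyclic loess scaling, 1 with the OT7 arrays averaged and 0 without lineage OT7. Without OT15, without OT14 or without single OT7 arrays it was 2 or 3, and 1 gene fell without OT15. With values raised to background 8 rose and 2 fell, beside 2186 of all 17097 genes called higher and 8325 called lower.

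Several aquaporins, Aqp3 and Aqp8 among them, also pass hydrogen peroxide. Of 18 measured genes that make or remove it, 2 rose and 3 fell, beside 7.78% of all genes higher and 4.81% lower. As with the other lists, earlier results were known when these genes were chosen, and the count and median are descriptions. The median difference of the 18 was 0.13, against -0.06 over all genes. It turned to -0.16 with cyclic loess, -0.08 with 75th percentile scaling and -0.11 without either OT15 array. Over all genes the median in these settings was -0.006, -0.26 and -0.05, so the 75th percentile scaling moved the list and all genes down alike. Duox1, an enzyme of epithelia that makes hydrogen peroxide, had a level in PD-SCC at least 1.88-fold lower, and was there under background on every array (4.60 ± 0.55 and 3.33 ± 0.16, SD, n = 4, adjusted p = 0.0227, range 0.00705 to 0.117 over 17 alternatives). That bound compares the WD-SCC mean with the background of the PD-SCC arrays. The Duox1 call was lost under 8 of 17 alternatives. Its maturation factor gene Duoxa1 fell by 2.52 (adjusted p = 0.00706, range 0.0031 to 0.0452), and the epithelial glutathione peroxidase gene Gpx2 fell by 3.77 (adjusted p = 0.00717, range 0.00264 to 0.0616). The peroxiredoxin genes Prdx2 and Prdx4 rose by 1.85 and 2.60 (adjusted p = 0.00528 and 0.0126, ranges 0.00275 to 0.585 and 0.0059 to 0.0668). The Prdx2 call was lost with the mean of its 2 probe sets, at 0.585. With the OT7 arrays averaged, or without OT7, 1 gene rose and 1 fell. With values raised to background 3 rose and 6 fell, beside 2186 of all 17097 genes called higher and 8325 called lower. Duox1 and Prdx4 were named after their values were seen.

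**Figure D5:**
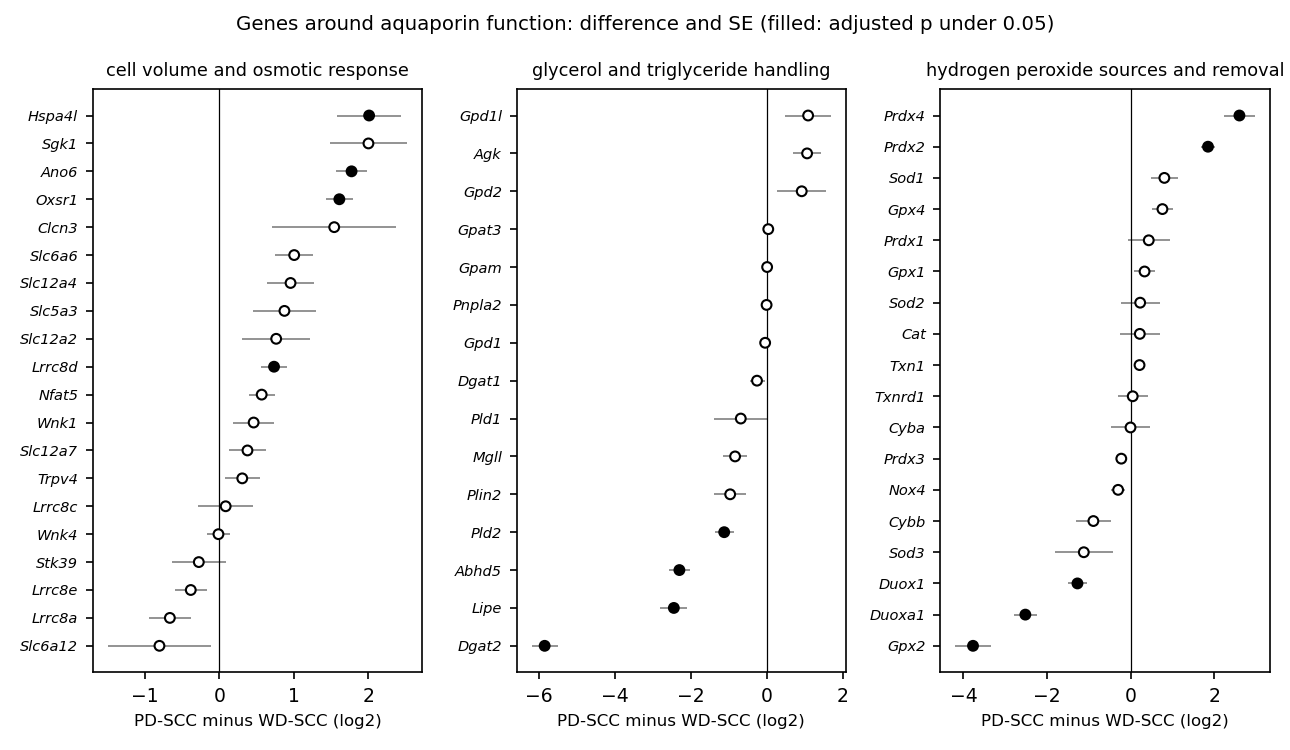
Difference between PD-SCC and WD-SCC (log2, lines are the SE) for each measured gene of 3 lists around aquaporin function, filled where the adjusted p is under 0.05 (limma). The filled points furthest left are Dgat2 among glycerol and triglyceride genes and Gpx2 among hydrogen peroxide genes, and those furthest right are Hspa4l among cell volume genes and Prdx4 among hydrogen peroxide genes.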

How the data were processed

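The authors deposited 1 log2 value per probe set for each of 8 single-colour Affymetrix arrays, made with RMA in affy, per the submitters' processing notes. RMA removes background, sets the arrays to 1 distribution by quantiles and condenses each probe set. Software versions, and which arrays were normalised jointly, were not stated. Values from 2.4 to 13.2 showed the log2 scale.

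Of 45141 probe sets, 28898 had 1 gene symbol, 551 several and 15588 none, and 104 were array controls. Symbols were updated by Entrez number (99.1% of genes matched). Genes were taken from the probe set with the highest mean, which left 17097.

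Stages were compared with limma 3.58.1 in R 4.3.3 (lmFit, eBayes, two-sided, Benjamini-Hochberg over all genes) with lineage as a fixed block, since the series design passes each lineage from WD-SCC to PD-SCC. The titles' replicate numbers count arrays within a lineage. Deviations from the stage means correlated at -0.04 (OT7), 0.02 (OT14) and 0.06 (OT15) within a lineage. Lineage levels and stage by lineage effects were F tests. The fits were tested on simulated data. Plots used Python 3.11.15 and matplotlib 3.10.9.

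Genes not above the brightest of 15 bacterial controls on any array of 1 stage got a bound. The text names all aquaporins, up to 3 called genes per list with the smallest p, and for each member above background with a range of at least 2 the 3 genes with the highest correlation. The members and lists were chosen with earlier results of these data known. List genes that could not be matched to a probe set of 1 gene were not analysed here. Alternatives were the fit without the block, a random block, averaged OT7 arrays, the mean of probe sets, a filter on dim genes, 2 scalings, another prior, values raised to background, and leaving out arrays or lineage OT7.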

Additional observations from a re-analysis of the deposited data

Results flagged for a closer look

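Within groups of 4 arrays, 50 groups of 25 named genes were searched for an array far from the others, and 3 were found. Chance gives about 1 in 20, so 3 of 50 is close to the chance count, and nothing is read from it. Aqp3 on the OT14 PD-SCC array, at 6.59, lay far below the other PD-SCC arrays, which stood between 8.33 and 8.61. Dgat2 on the unnumbered OT7 WD-SCC array stood at 9.09, below the other WD-SCC arrays. Duoxa1 on the OT7 WD-SCC array numbered 2 stood at 6.12, also below the others. In each case the direction of the stage difference was the same in all 3 lineages.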

How the results depend on the processing

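The Aqp1, Aqp3 and Aqp5 differences kept their sign under the 15 alternatives run for each. Aqp1 ranged from 2.73 (without lineage OT7) to 5.42, Aqp3 from -3.14 to -1.90 and Aqp5 from -1.67 to -0.06. In the fit with no replicate block 2123 genes were called between stages, against 2154 with lineage as the block. The count was 401 with the OT7 arrays averaged, 246 without OT7 and 886 to 1689 when 1 array was left out, which for OT14 or OT15 removes that lineage from the stage effect. Of the calls, 1331 were higher and 823 lower, but cyclic loess gave 864 and 864 and the 75th percentile 1102 and 1463, with a median over all genes of -0.26. There Aqp1 differed by 4.39 and Aqp3 by -2.74. The lineage test called 0 to 2 genes when 1 array was left out, and the stage by lineage test called 14 with the trended and robust prior; the causes were not tested. Dgat2 and Duoxa1 were called under all 17 alternatives. Leaving out either array of OT14 gave the same stage result, and so did leaving out either array of OT15. The 17 alternatives of the stage fit, and the 15 for the members, are therefore not all distinct. The number of arrays and the signal over background limit what can be seen of Aqp4, Aqp7, Aqp8 and Aqp9.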
